A study of Mus musculus with 8 samples.

Results

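Cells with many RNA counts were compared with cells with few, within each library of a mouse mammary tumour line profiled cell by cell. Cells were chosen by their total counts over all genes: high-count cells had 2000 or more and low-count cells 1000 to 1300. This gave 1271 high-count and 2271 low-count cells, so that 3542 of 7400 cells entered the comparison. The cells were Tri-PyMT cells, grown in DMEM with serum, from a tumour of a mouse that carries MMTV-PyMT (a viral oncogene expressed in mammary epithelium), Fsp1-cre and Rosa26mT/mG. That last allele switches a cell from red to green fluorescence once Cre recombinase has cut it. The Fsp1 (S100a4) promoter, often active in mesenchymal cells, drives the Cre. Cells had been sorted by colour into RFP+ and GFP+ populations, with the same alleles and no treatment named for either, and 2 Drop-seq libraries per population stood in the count table, each sequenced on 2 lanes. Whether the paired libraries of a population came from different cultures is not stated, so the p-values rest on a spread that may be technical.

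Drop-seq captures mRNA with poly(A) tails from single cells on beads that each carry their own barcode. How many counts a cell gives depends on how much RNA it holds and on how well that RNA was captured, and these cannot be told apart here. A growing cell adds RNA as it moves from G1 towards mitosis, ribosomal protein mRNAs make up a large share of it, and the small genome of the mitochondria adds its own rRNAs and mRNAs for the respiratory chain. The question was which RNAs take a different share of the counts in cells with many counts.

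In the libraries labelled RFP+, 366 and 333 cells were high-count and 655 and 539 low-count. In those labelled GFP+, 309 and 263 were high-count and 548 and 529 low-count. Median counts per cell were 2494 to 2657 in the high and 1119 to 1131.5 in the low classes, and the highest cell had 10513. At the lower limit of the high class, 73 cells lay inside it by fewer than 50 counts and 86 lay outside by 50 or fewer. These totals chose the cells and are given as a description. Library totals were 2550324 to 3081011 counts, and the summed classes held 600049 to 1109134. The reporter rows went against the labels. CUSTOM_GFP was at 549 to 673 CPM (counts of a gene scaled to a common total per class) in the libraries labelled RFP+ and 84.1 to 120 in those labelled GFP+. CUSTOM_RFP was at 129 to 143 CPM in the former and 2915 to 3086 in the latter, so populations are named here only as their libraries are labelled. Epithelial markers such as Krt18 and Epcam and the mesenchymal marker Vim were present in both populations at different levels. The epithelial list summed to 5924 and 6005 CPM in low-count cells labelled RFP+ and 3348 and 3215 CPM in those labelled GFP+. Markers of blood, vessel and fibroblast cells summed to 9.86 to 88.0 CPM per list, and erythroid markers were at 0 in every class. Barcodes that libraries shared numbered 2, and no cell with them was in a class.

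Because every gene adds to the total that chose the cells, each gene was tested in cells classed by the counts of other genes. The gene rows were divided into 2 sets, and a gene was tested in cells that the other set had classed, with the limits scaled to that set. These classes held 97.5% and 97.8% of the high-count and 90.2% and 89.5% of the low-count cells of the rule, and no cell changed from high to low. CPM values below, and counts of genes higher or lower in all 4 libraries, are from the cells of the rule. Log2 folds (high over low), their SE and adjusted p are from the test. All lists of genes below were chosen with earlier results of these data known, so the share of a list called is a description. For how many of all genes the classes did not overlap was not counted.

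High-count cells carried a lower share of mitochondrially encoded RNA and of the nuclear RNA Malat1. A few mRNAs for matrix, secreted and endoplasmic reticulum proteins were slightly lower, and a few others, among them those of linker histones and Ube2c, slightly higher. Averaged over both populations, 50 of 7273 genes (0.687%) differed at an adjusted p under 0.05: 11 (0.151%) were higher and 39 (0.536%) lower in high-count cells (edgeR's quasi-likelihood test, Benjamini-Hochberg adjustment). In the libraries labelled RFP+ alone, 35 genes (0.481%) differed, 8 (0.11%) higher and 27 (0.371%) lower. In those labelled GFP+, 4 genes (0.055%) differed, 1 (0.0137%) higher and 3 (0.0412%) lower. DESeq2's Wald test called 5 genes in the average, all lower: Malat1, mt-Cytb, mt-Nd1, mt-Rnr1 and mt-Rnr2. All other calls in the average were lost with DESeq2. With every cell thinned to 800 counts edgeR called 14 in the average. Differences were small: among 3411 genes at 50 CPM or more the median size of the averaged log2 fold was 0.0836, and 11 of these genes differed by over 1.5-fold. The 50 genes called in the average became 24 without the first and 19 without the second library labelled RFP+, and 13 without the first and 30 without the second labelled GFP+. The 35 genes of the RFP+ libraries became 17 without the first and 14 without the second of them, and the 4 of the GFP+ libraries became 2 without either.

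**Figure D1:**
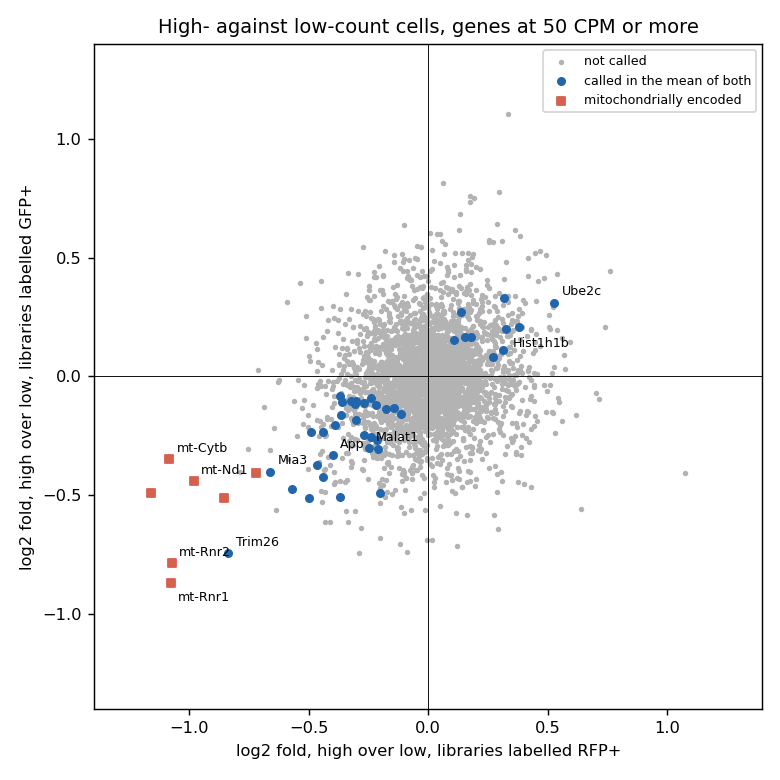
Log2 fold of high- over low-count cells in the libraries labelled RFP+ (horizontal) and GFP+ (vertical), 1 point per gene with at least 50 CPM in either class. Red squares are mitochondrially encoded genes, blue points other genes called in the average of both populations; the mitochondrial genes lie lower left, away from the cloud around 0.

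The mitochondrially encoded genes were lower in high-count cells in all 4 libraries. Of 15 such genes listed, 10 had a row in the count table. Of these rows 1 had no count in either class and 8 passed the filter on low values. Of the 8, 6 fell, against 0.536% of all genes tested, and none rose. In cells classed by total counts all 8 had a lower level in every library, against 7.59% of all genes tested. Their median log2 fold was -0.74 in the average, against 0.00 over all genes tested. In the libraries labelled RFP+ 7 of 8 fell (median -1.08), against 0.371% of all genes. In those labelled GFP+ 2 of 8 did (median -0.47), against 0.0412% of all genes. Together the rows of this list, most of whose counts were mt-Rnr2, made up 0.791% and 0.822% of the counts of low-count cells labelled RFP+. In high-count cells labelled RFP+ they made up 0.438% and 0.347%. In the libraries labelled GFP+ the share was 0.488% and 0.441% in low-count and 0.304% and 0.269% in high-count cells. The classes did not overlap within either population. Counts per cell are set in part by the choice of cells and are given as a description. Those of mitochondrially encoded RNA were 8.98 and 9.28 in low-count and 13.3 and 10.5 in high-count cells labelled RFP+, and 5.56 and 5.00 against 9.01 and 7.68 in those labelled GFP+. Over the same classes ribosomal protein mRNA went from 189 to 208 counts per cell to between 496 and 576.

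The rRNAs of the mitochondrial ribosome, mt-Rnr2 and mt-Rnr1, had the largest averaged falls of the 8 and the smallest SE. In the RFP+ libraries alone mt-Co1 and mt-Nd5 had larger ones (log2 folds -1.35 and -1.16). mt-Rnr2, the 16S rRNA (GRCm38 chromosome M, 1094 to 2675), was at 5823 and 6097 CPM in low-count and 3227 and 2533 in high-count cells labelled RFP+, and at 3485 and 3298 against 2126 and 1933 CPM in those labelled GFP+. Every high-count value was below every low-count value. The averaged log2 fold of mt-Rnr2 was -0.93 ± 0.03 (SE), with an edgeR adjusted p of 2.96e-196. This SE comes from a dispersion shared by all genes and not from the spread of mt-Rnr2 over libraries, so the p can be too small. mt-Rnr1, the 12S rRNA, went from 569 and 582 CPM to 307 and 238 in the RFP+ libraries and from 591 and 443 to 309 and 256 in the GFP+ libraries, an averaged log2 fold of -0.97 ± 0.06. Of the mRNAs, mt-Cytb, cytochrome b of complex III, went from 583 and 565 to 297 and 246 CPM in the RFP+ libraries. In the GFP+ libraries mt-Cytb was at 288 and 235 CPM in low-count and 234 and 179 in high-count cells, where the classes touch. Its averaged log2 fold was -0.72 ± 0.07. The complex I subunits mt-Nd1, mt-Nd2 and mt-Nd5 fell by averaged log2 folds of -0.71, -0.68 and -0.83. mt-Co1, a subunit of complex IV at low counts, passed only in the RFP+ libraries (log2 fold -1.35 ± 0.29).

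**Figure D2:**
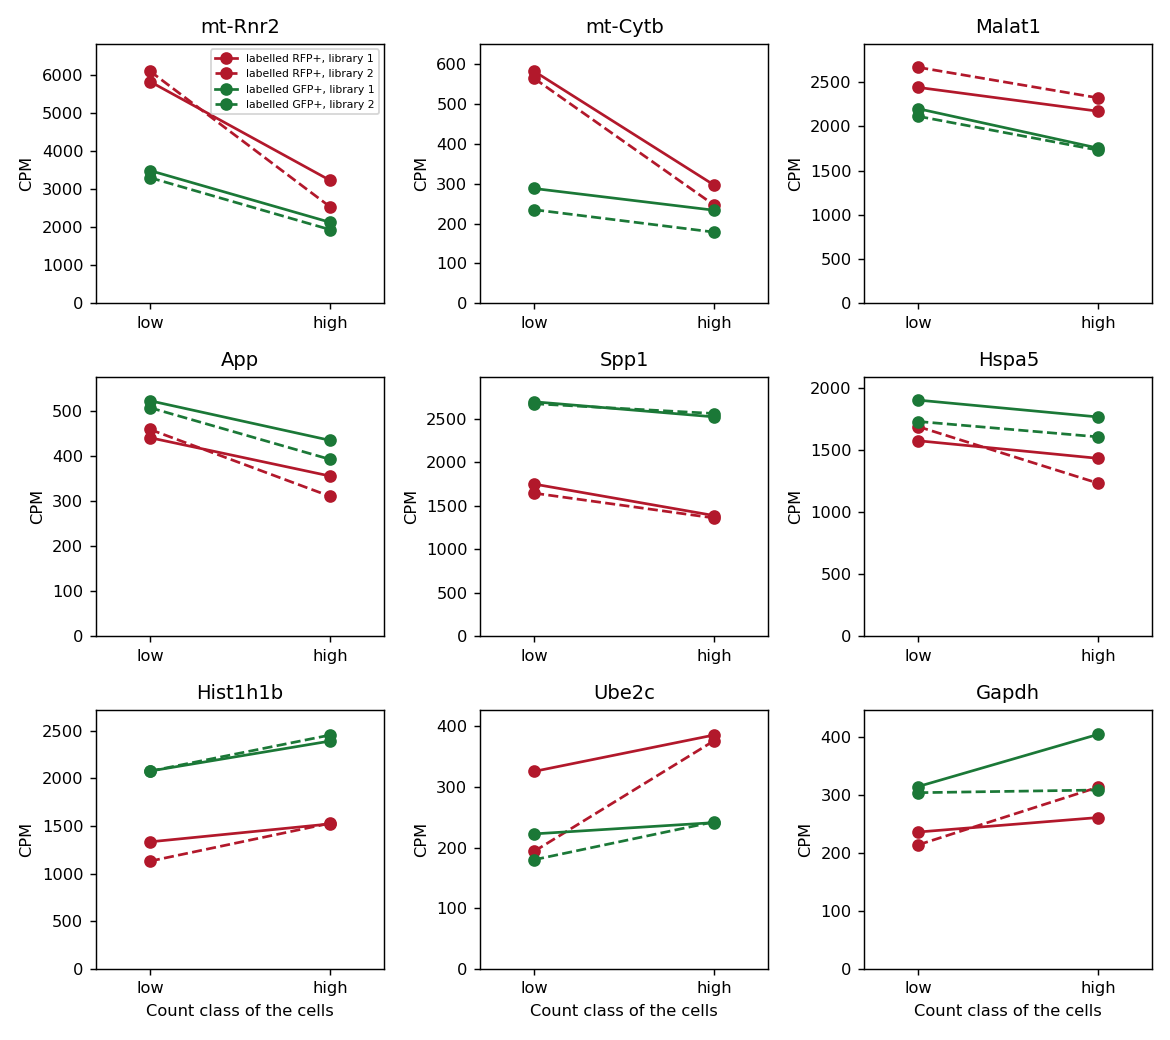
CPM of 9 genes in low- and high-count cells, 1 line per library (red labelled RFP+, green labelled GFP+, solid first and dashed second library), with axes from 0. Lines for mt-Rnr2, mt-Cytb, Malat1, App, Spp1 and Hspa5 go down in all 4 libraries and those for Hist1h1b, Ube2c and Gapdh go up.

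The fall of mitochondrially encoded RNA was graded over the counts of a cell. In the first RFP+ library its share was 1.0% of counts in cells with 500 to 999 counts, 0.753% at 1301 to 1599, 0.605% at 1600 to 1999, 0.578% at 2000 to 2999 and 0.299% from 3000 up. The second RFP+ library went from 0.992% to 0.230% over the same range. The GFP+ libraries started lower, at 0.554% and 0.539%, and ended at 0.298% and 0.264%. Low-count cells of the populations thus lay apart, while from 3000 counts up the values of the 4 libraries overlapped. With each cell thinned to 1000 counts, the median share per cell was 0.6% in low-count and 0.3% in high-count cells of both RFP+ libraries. It was 0.4% and 0.3% against 0.2% in both of the GFP+ libraries. Of 76 nuclear genes for the same respiratory complexes 1 (1.32%) fell, against 0.536% of all genes, and none rose, with a median log2 fold of -0.01. The 1 that fell was Cox6a1, a small subunit of complex IV, with a log2 fold of -0.23 ± 0.06.

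**Figure D3:**
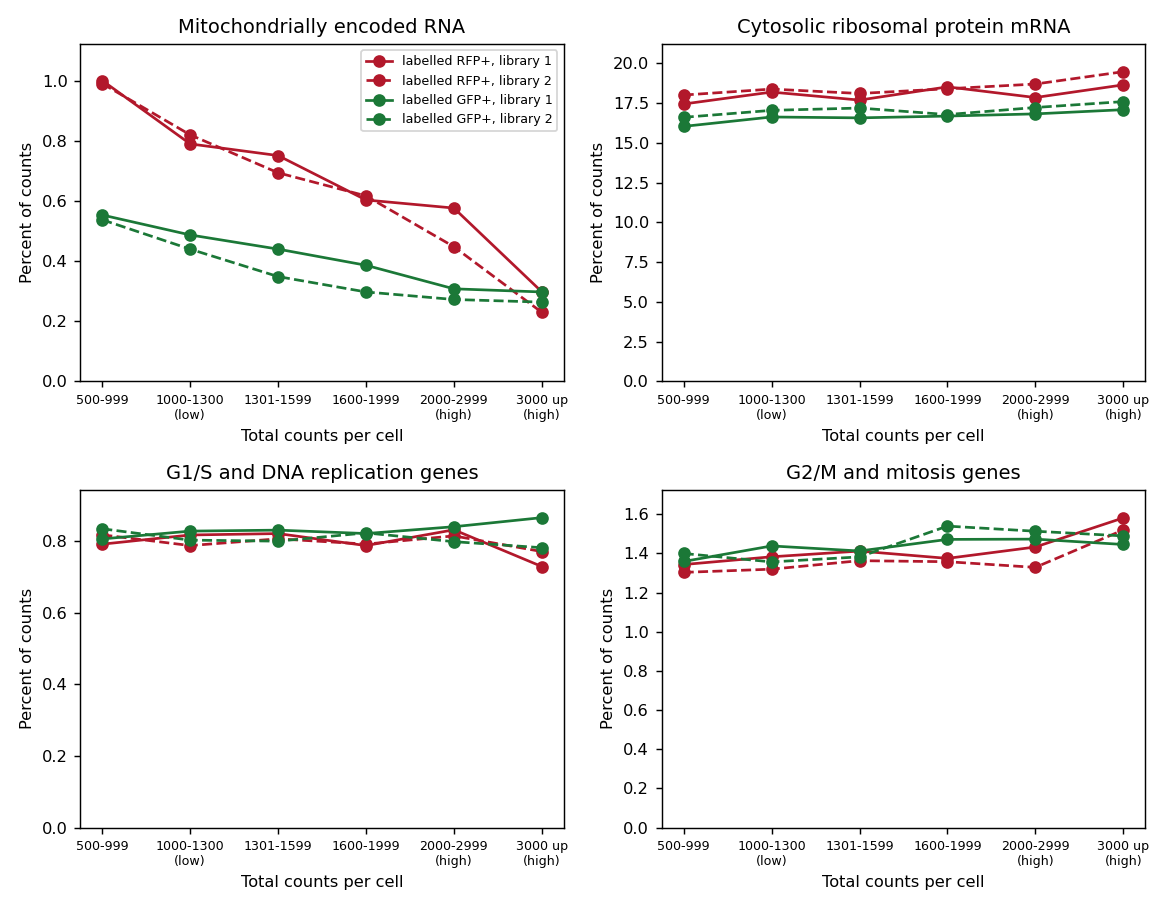
Share of counts of 4 gene lists by total counts of the cell, in percent, 1 line per library, with each vertical axis from 0. Mitochondrially encoded RNA falls stepwise, from about 1.0% to 0.299% in the first RFP+ library, while ribosomal protein and G1/S lists change little. The G2/M list of that library was at 1.38% in the low and 1.51% in the high class.

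Malat1, a long noncoding RNA that stays in the nucleus, fell in both populations. It was at 2442 and 2669 CPM in low-count and 2172 and 2323 in high-count cells labelled RFP+, and at 2201 and 2115 against 1754 and 1732 in those labelled GFP+. Within each population the classes, of 2 libraries each, did not overlap. The averaged log2 fold was -0.28 ± 0.03 (edgeR adjusted p 2.20e-13), and DESeq2's Wald test called it too (adjusted p 0.00396). Of 11 nuclear-retained long RNAs tested, Malat1 was the 1 called in the average, against 0.536% of all genes called lower. The list's median log2 fold was -0.19. Neat1, the scaffold RNA of paraspeckles, was too scarce to tell, at 25.3 to 54.2 CPM and a log2 fold of -0.24 ± 0.21. Gas5, a host of small nucleolar RNAs, fell in the libraries labelled RFP+ only (log2 fold -0.37 ± 0.08), and the difference between populations did not pass the test.

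Some mRNAs for chaperones of the endoplasmic reticulum (ER) were lower in high-count cells. Of 26 genes of the unfolded protein and integrated stress responses 3 fell, against 0.536% of all genes, and none rose (median log2 fold -0.13). They were Hspa5, Hsp90b1 and Calr, which fold newly made proteins in the ER. In the RFP+ libraries alone 2 of the 26 were called lower, against 0.371% of all genes, and in the GFP+ libraries none was called. Hspa5 (BiP; chromosome 2, 34771970 to 34777547) was at 1578 and 1692 CPM in low-count and 1435 and 1234 in high-count cells labelled RFP+. In the GFP+ libraries it was at 1906 and 1733 against 1770 and 1609 CPM, where the classes overlapped. Its averaged log2 fold was -0.21 ± 0.04 (edgeR adjusted p 3.12e-06), and without the second RFP+ library the adjusted p was 0.066. Hsp90b1 (Grp94) had a log2 fold of -0.17 ± 0.03 and Calr, calreticulin, of -0.14 ± 0.04. Xbp1, a transcription factor of the response, had a log2 fold of -0.42 ± 0.15 that did not pass. Of 50 genes of the secretory pathway none passed in either direction by edgeR or DESeq2, 5 had an unadjusted p under 0.05 (605 of 7273 over all genes), and the median log2 fold was -0.04.

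The promoters of Hspa5 and Hsp90b1 are shown because these chaperone genes fell together, a choice made after their values were seen. They are the 250 bases before the RefSeq start site (GRCm38.p6), chr2:34771840-34772089 on the plus strand and chr10:86705445-86705694 on the minus strand. Capitals mark each match, on either strand, to the ER stress element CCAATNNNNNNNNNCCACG.
Hspa5: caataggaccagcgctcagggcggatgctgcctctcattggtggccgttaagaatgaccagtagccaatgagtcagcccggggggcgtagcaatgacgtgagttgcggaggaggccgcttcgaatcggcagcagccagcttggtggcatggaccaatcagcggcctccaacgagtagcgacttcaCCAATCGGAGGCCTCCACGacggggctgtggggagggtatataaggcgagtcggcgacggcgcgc
Hsp90b1: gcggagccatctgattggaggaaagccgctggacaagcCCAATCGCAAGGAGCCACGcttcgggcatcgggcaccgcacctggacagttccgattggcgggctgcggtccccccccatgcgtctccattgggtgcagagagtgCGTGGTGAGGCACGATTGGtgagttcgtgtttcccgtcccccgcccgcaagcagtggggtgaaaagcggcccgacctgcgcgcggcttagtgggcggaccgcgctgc
Hspa5 held 1 match and Hsp90b1 2, and 37 of 32851 RefSeq promoters of this length (0.113%) held any. A match is a run of letters and not a measured binding site. The promoter of Calr, which also fell, is not shown, and no cause of these falls was tested.

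Some matrix and adhesion genes fell. Of 28 mesenchymal genes tested 6 fell in the average, against 0.536% of all genes, and none rose. In the RFP+ libraries alone 3 were called lower, against 0.371% of all genes, and in the GFP+ libraries none was called. The median averaged log2 fold was -0.16. In cells classed by total counts 9 were lower in all 4 libraries, against 7.59% of all genes. The 6 included Fn1 (fibronectin, log2 fold -0.44 ± 0.12), Sparc (a matrix glycoprotein, -0.24 ± 0.05) and S100a4 (-0.17 ± 0.04). The calls of Fn1, Sparc and S100a4 were lost in 12, 10 and 8 of 16 other settings. S100a4, a calcium-binding protein whose promoter drives the recombinase, was at 716 and 726 CPM against 537 and 699 in the RFP+ libraries and at 1984 and 2156 against 1699 and 2062 in the GFP+ libraries. Vim, at 1782 to 3399 CPM, had a log2 fold of -0.05 ± 0.03 and did not pass. Spp1, which encodes the secreted phosphoprotein osteopontin, was at 1749 and 1644 CPM in low-count and 1386 and 1358 in high-count cells labelled RFP+. In the GFP+ libraries Spp1 was at 2696 and 2673 against 2522 and 2561 CPM. Its averaged log2 fold was -0.21 ± 0.03 (edgeR adjusted p 3.34e-07). Itgb1, the beta-1 integrin, had one of -0.19 ± 0.04.

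The other named genes that fell included membrane and secreted proteins. App, the amyloid precursor protein, was at 442 and 460 CPM in low-count and 356 and 311 in high-count cells labelled RFP+, and at 524 and 508 against 436 and 393 CPM in those labelled GFP+. No high-count value reached the lowest low-count value, and the averaged log2 fold was -0.37 ± 0.06 (edgeR adjusted p 4.44e-07). Cp, the copper-binding ferroxidase ceruloplasmin, had a log2 fold of -0.36 ± 0.06, and Atp2b1, a calcium pump of the plasma membrane, one of -0.34 ± 0.06. Aebp1 was at -0.42 ± 0.08, Efnb2, a membrane-bound ephrin, at -0.51 ± 0.14, and Mia3, which loads large cargoes such as collagen for export from the ER, at -0.53 ± 0.13. Trim26 had the largest fall of this set, from 57.9 and 47.6 to 33.4 and 28.8 CPM in the RFP+ libraries and from 52.9 and 43.3 to 24 and 34.7 in the GFP+ libraries, a log2 fold of -0.79 ± 0.20. Plec, the cytoskeletal linker plectin, was at -0.43 ± 0.11. It was 1 of 3 called, all lower, among 35 genes for large cytoskeletal and scaffold proteins (median -0.13), against 0.536% of all genes called lower. None of the 35 was called in either population alone. In cells classed by total counts 12 of the 35 were lower in all 4 libraries, against 7.59% of all genes. This list, like the others, was chosen with earlier results of these data known. Without single libraries many of these calls were lost. Among the 50 genes called in the average, only Malat1, mt-Cytb, mt-Rnr1 and mt-Rnr2 kept the call under each of 16 other settings.

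Linker histones were among the genes that rose. Hist1h1b, the linker histone H1.5 (chromosome 13, 21779883 to 21780625), was at 1333 and 1130 CPM in low-count and 1521 and 1528 in high-count cells labelled RFP+. In the GFP+ libraries it was at 2076 and 2075 CPM against 2391 and 2454. The classes, of 2 libraries each, did not overlap in either population. The averaged log2 fold was 0.26 ± 0.04 (edgeR adjusted p 1.92e-10), and Hist1h1b was the 1 gene higher in the GFP+ libraries alone (adjusted p 0.0492). Hist1h1e, another linker histone, rose by 0.18 ± 0.04. They were 2 of 22 histone genes tested, against 0.151% of all genes called higher. None of the 22 fell, and their median log2 fold was 0.08. Clustered histone mRNAs are made in S phase and mostly lack poly(A) tails, and near-identical copies can share reads, so these values are uncertain.

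Of 75 G2/M and mitosis genes tested 2 rose in the average, against 0.151% of all genes, and none fell. In the RFP+ libraries alone 2 were called higher, against 0.11% of all genes, and in the GFP+ libraries none was called. The median averaged log2 fold was 0.12, against 0.00 over all genes, and 61 were above 0, against 50.6% of all genes. In cells classed by total counts 18 were higher in all 4 libraries, against 7.62% of all genes. Ube2c, which tags mitotic cyclins for destruction with the anaphase-promoting complex, was at 326 and 194 CPM in low-count and 386 and 377 in high-count cells labelled RFP+. In the GFP+ libraries it was at 223 and 180 CPM against 241 and 243. Its averaged log2 fold was 0.42 ± 0.08 (edgeR adjusted p 2.07e-05). Without the second RFP+ library it was 0.27 with an adjusted p of 0.257, and without the second GFP+ library 0.34 with 0.0697. Top2a, the topoisomerase that untangles chromosomes, was at 656 and 583 against 737 and 657 CPM and at 732 and 705 against 762 and 798 CPM. Its log2 fold of 0.17 ± 0.05 just passed (adjusted p 0.0494), and the call was lost in 14 of 16 other settings, without any 1 of the 4 libraries among them (adjusted p 0.3 and 0.257 for RFP+, 0.112 and 0.685 for GFP+). Nusap1, a spindle protein, passed in the RFP+ libraries only (log2 fold 0.51 ± 0.14). Mki67, a marker of cycling cells, had a log2 fold of -0.01 ± 0.06. Summed over the list, G2/M genes were at 13832 and 13199 CPM in low-count and 15076 and 14183 in high-count cells labelled RFP+, and at 14386 and 13571 against 14613 and 15037 in those labelled GFP+. All 4 differences were positive, but in the GFP+ libraries their mean of 846 CPM was no larger than its SD of 876. In RFP+ cells with 2000 to 3000 counts the difference from the low class was 296 CPM, against 1114 with all high-count cells.

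The promoters of Ube2c and Top2a are shown because cell cycle genes of the G2/M group commonly carry a CHR element and CCAAT boxes. They are the 250 bases before the RefSeq start site (GRCm38.p6), chr2:164769679-164769928 on the plus strand and chr11:99024190-99024439 on the minus strand. Capitals mark TTTGAA (CHR) and CCAAT, on either strand, where neighbouring matches can overlap.
Ube2c: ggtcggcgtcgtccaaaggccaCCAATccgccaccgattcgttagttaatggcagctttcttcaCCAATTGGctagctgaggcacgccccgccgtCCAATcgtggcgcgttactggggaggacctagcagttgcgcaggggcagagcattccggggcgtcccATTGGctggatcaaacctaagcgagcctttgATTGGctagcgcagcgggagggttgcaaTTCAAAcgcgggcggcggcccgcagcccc
Top2a: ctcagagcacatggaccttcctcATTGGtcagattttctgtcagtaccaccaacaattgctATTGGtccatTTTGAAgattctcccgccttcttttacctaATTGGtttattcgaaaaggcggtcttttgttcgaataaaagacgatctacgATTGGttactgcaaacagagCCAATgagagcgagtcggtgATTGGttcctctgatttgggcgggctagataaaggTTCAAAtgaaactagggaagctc
Ube2c held 1 and Top2a 2 matches to TTTGAA, and 16% of RefSeq promoters of this length held at least 1. Both held 6 matches to CCAAT, and 33.8% of RefSeq promoters held at least 1. The share with as many as 6 was not counted.

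No gene of the S-phase list was called. Of 64 G1/S and DNA replication genes none passed in either direction by edgeR or DESeq2, and the median log2 fold was 0.00. Of the 64, 3 had an unadjusted edgeR p under 0.05, against 605 of 7273 over all genes. Pcna, the sliding clamp of DNA replication, was at 418 to 493 CPM in all classes, with a log2 fold of -0.07 ± 0.06. Summed over the list, high minus low was -151 ± 307 CPM (SD, n = 2) in the RFP+ and 60.6 ± 246 CPM in the GFP+ libraries. Of 13 tubulin genes none passed by edgeR or DESeq2, 2 had an unadjusted p under 0.05, and the median log2 fold was 0.10.

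Ribosomal protein mRNAs held nearly the same share of counts in both classes. The share was 18.2% and 18.4% in low-count and 18.2% and 19.1% in high-count cells labelled RFP+, and 16.6% and 17.0% against 16.9% and 17.4% in those labelled GFP+. High minus low was 0.367 ± 0.441 percentage points (SD, n = 2) in the RFP+ and 0.323 ± 0.0156 in the GFP+ libraries. With cells classed by the counts of other genes alone it was 0.145 and 0.0815 points, a smaller difference than where the list's own counts were part of the totals. Of 82 ribosomal protein genes none passed by edgeR or DESeq2, 8 had an unadjusted p under 0.05, against 605 of all 7273 genes, 61 were above 0, against 50.6% of all genes, and the median log2 fold was 0.02. Rpl7 and Rplp0 had log2 folds of 0.11 ± 0.03 and 0.10 ± 0.03. Of 46 translation factors 1 rose, against 0.151% of all genes, and none fell (median log2 fold 0.05). It was Eef1a1, which brings charged tRNA to the ribosome, at 0.13 ± 0.03 (edgeR adjusted p 0.0305). The call was lost without the second RFP+ library (adjusted p 0.257) and without either GFP+ library (0.358 and 0.527). Of 102 ribosome biogenesis genes none passed by edgeR or DESeq2, 6 had an unadjusted p under 0.05, and the median log2 fold was 0.00.

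**Figure D4:**
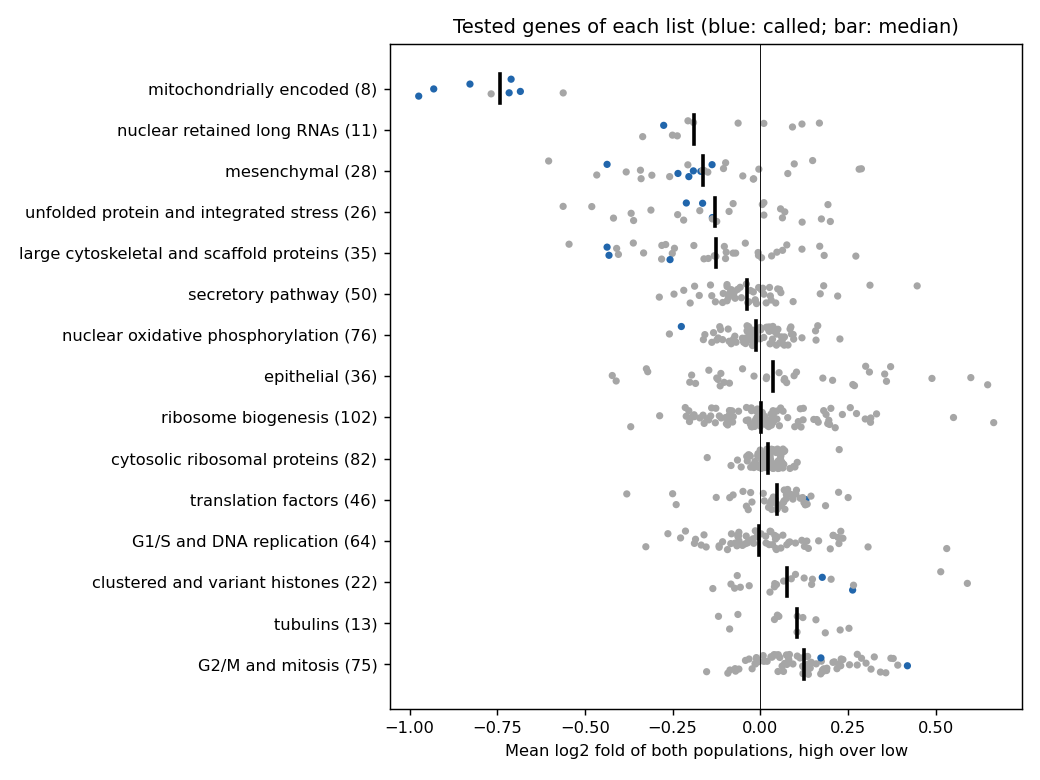
Averaged log2 fold of high- over low-count cells for each tested gene of 15 lists, with the number tested in brackets; blue points are called genes and the black bar is the median. The 8 mitochondrially encoded genes lie furthest from 0 at a median of -0.74, and ribosomal protein genes sit close to 0.

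Other called genes that rose belonged to different lists or to none. Gm26924, a gene row picked out here after its values were seen, was at 3828 and 4096 CPM in low-count and 5075 and 4934 in high-count cells labelled RFP+. Gm26924 in the GFP+ libraries was at 5641 and 5405 against 5331 and 6384 CPM, lower in the first and higher in the second. Its averaged log2 fold was 0.21 ± 0.03 (edgeR adjusted p 5.27e-11), and DESeq2 did not call it. Gapdh, a glycolytic enzyme, was at 236 and 214 CPM in low-count and 261 and 313 in high-count cells labelled RFP+, and at 314 and 303 against 404 and 308 CPM in those labelled GFP+. Its averaged log2 fold was 0.29 ± 0.07 (adjusted p 0.0129), and the call was lost without the second RFP+ library (adjusted p 0.517) or the first GFP+ library (0.578). Hspa8, the constitutive cytosolic Hsp70, rose by 0.16 ± 0.04. It was the 1 gene called among 36 chaperones, against 0.151% of all genes called higher. Snx5, a sorting nexin, rose by 0.32 ± 0.09, and Pcbp2, an RNA-binding protein, by 0.20 ± 0.05. Actb, the cytoplasmic beta-actin, was at 7555 to 8142 CPM with a log2 fold of 0.01 ± 0.03. Of 36 epithelial genes none passed by edgeR or DESeq2, and the median log2 fold was 0.04. Of the 36, 5 had an unadjusted edgeR p under 0.05, against 605 of 7273 over all genes. Krt18 was at 945 and 1022 CPM against 1015 and 1022 in the RFP+ libraries and at 317 and 367 against 380 and 356 in the GFP+ libraries.

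Transcript length went with the log2 fold only weakly. Across 6931 genes with a GENCODE length, Spearman's rho between length and log2 fold was -0.0181 in the RFP+ and -0.0814 in the GFP+ libraries. This is a description over genes that share libraries and depth. Single libraries gave 0.0202 and -0.0464 for RFP+ and -0.0725 and -0.0529 for GFP+, so the sign differed between the RFP+ libraries. In 5 bins of length, median log2 folds went from 0.02 for the shortest (57 to 1628 bases) to -0.04 for the longest (from 5032 bases) in the GFP+ libraries. In the RFP+ libraries they lay between -0.01 and 0.01. The called genes that fell had a median length of 3596.5 bases and those that rose 2292.5, against 3001 over all genes. GC content gave a rho of -0.0472 in the RFP+ and 0.04 in the GFP+ libraries. With offsets for length and GC content in the fit, which left 6931 of the 7273 genes to test, 42 genes were called in the average in place of 50.

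**Figure D5:**
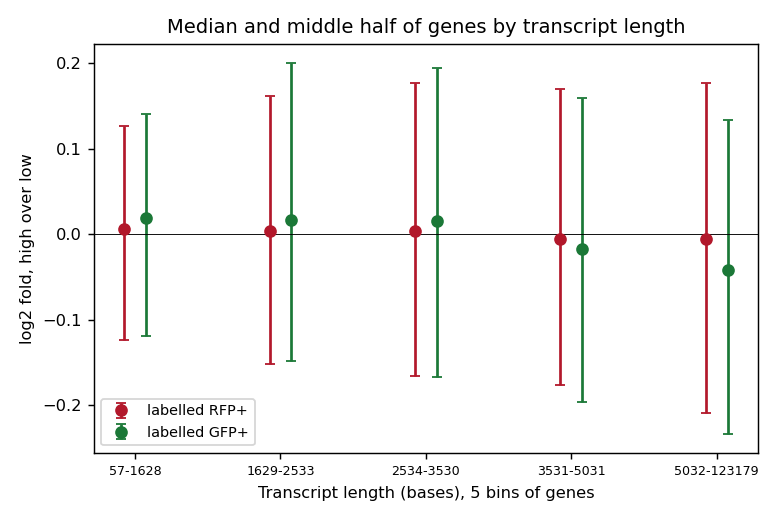
Median log2 fold of high- over low-count cells (points) and interquartile range (bars) in 5 bins of transcript length in bases, for libraries labelled RFP+ (red) and GFP+ (green). Medians stay within 0.05 of 0 in every bin, and the bars of neighbouring bins overlap almost fully.

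Thinned to 1000 counts, cells of both classes held nearly the same number of different genes. The median was 690 in low-count cells of both RFP+ libraries and 699 and 692 in their high-count cells. It was 698.5 and 694 against 703 and 699 in the GFP+ libraries. Before thinning the medians were 746 to 765 genes in low-count and 1364 to 1418 in high-count cells.

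All 8 mitochondrially encoded genes tested fell less in the libraries labelled GFP+, where 50.1% of all genes had a difference above 0. Their median log2 fold of GFP+ minus RFP+ libraries was 0.443, and 5 of the 8 had an unadjusted edgeR p under 0.05. Of 7273 genes 2 (0.0275%) had a high against low difference that itself differed between populations, mt-Cytb and mt-Rnr2, both higher in GFP+ minus RFP+, and none (0%) the other way. The log2 fold of GFP+ minus that of RFP+ libraries was 0.735 ± 0.141 for mt-Cytb (edgeR adjusted p 0.00138) and 0.287 ± 0.0608 for mt-Rnr2 (adjusted p 0.00843). Without the second RFP+ library the differences were 0.612 and 0.109, and neither passed. Neither passed without either of the GFP+ libraries, and DESeq2 called no gene for this difference, with 380 genes at an unadjusted edgeR p under 0.05. With high-count cells limited to 2000 to 3000 counts the mt-Rnr2 difference was -0.0428 and that of mt-Cytb 0.442. Has2, which makes hyaluronan, Msln, a surface antigen, and Jun fell in the RFP+ libraries alone, with log2 folds of -0.97, -0.71 and -0.47, and for none of them did the difference between populations pass.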

How the data were processed

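The authors deposited 1 table of raw counts per gene row and cell, with 16647 gene rows and 7400 cells, made by Drop-seq with Nextera library preparation, per the labels' protocols. The submitters' processing notes name the build GRCm38. Aligner, counter and any collapsing of molecular identifiers: not given in the sources used here. Of the rows, 772 had no count and 22 had names that look like dates. Column prefixes gave the 4 libraries, which are the replicates (2 per population), and the lanes stood pooled.

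Cells were classed by total counts. Counts were summed per class and library. The sums went through edgeR 4.0.16 (R 4.3.3; TMM factors, quasi-likelihood test), with all 8 sums in 1 fit with a term for each library, over 7273 genes with at least 10 CPM on average and 40 counts. Classes of 1 library are paired by that library. The dispersion was shared by all genes (common biological coefficient of variation 0.0246, 2 residual degrees of freedom), so an SE is not a gene's own spread and a p can be too small. DESeq2 1.42.0 was an alternative. Names went to the 12 largest called changes per direction at 50 CPM or more with 1 sign in all 4 libraries (without ribosomal protein genes, mitochondrial genes and unnamed gene models), a fixed set of genes, and up to 4 genes per list. Other called genes named outside this rule, chosen after their values were seen, are Gm26924, Spp1, Itgb1, Sparc, Hsp90b1, Calr, Gas5, Has2, Msln, mt-Nd1, mt-Nd2 and mt-Co1. The members and the 30 lists were chosen with earlier results of these data known. The fit was tested on simulated data. Lengths came from GENCODE M21 on GRCm38 and promoters from RefSeq. No doublet caller was run, and the share of droplets with more than 1 cell is unknown.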

Additional observations from a re-analysis of the deposited data

Results flagged for a closer look

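The high against low difference of mt-Cytb differed between the populations, with a log2 fold of GFP+ minus RFP+ labelled libraries of 0.735 ± 0.141 (edgeR adjusted p 0.00138, 2 libraries per population). That of mt-Rnr2 differed by 0.287 ± 0.0608 (edgeR adjusted p 0.00843). Without the second RFP+ library the differences were 0.612 for mt-Cytb and 0.109 for mt-Rnr2. With high-count cells of 2000 to 3000 counts they were 0.442 and -0.0428. DESeq2 called neither, and each SE comes from a dispersion shared by all genes. The summed reporter rows moved in opposite directions in the populations: high minus low was -77.69 CPM in the libraries labelled RFP+, where both libraries were lower, and 41.25 CPM in those labelled GFP+, where both were higher. This difference was not tested for the sum, and neither reporter row alone passed the test of a difference. In the second GFP+ library the sum went only from 3190 to 3191 CPM.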

How the results depend on the processing

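Counts of called genes depended on most settings, and the order below is RFP+ labelled libraries, GFP+ labelled libraries, their average and the difference between populations, from 35, 4, 50 and 2. Thinning cells to 800 counts gave 11, 2, 14 and 0. The fit with no replicate block (no library term) gave 17, 2, 19 and 0. High-count cells of 2000 to 3000 counts gave 9, 2, 9 and 0, and cells of 1600 to 2000 counts against the low class 2, 2, 7 and 0. DESeq2 gave 4, 2, 5 and 0. Without the filter on low genes there were 23 in the RFP+ libraries and 29 in the average. Leaving out 1 library at a time gave 14 to 37, 2 to 4, 13 to 30 and 0 to 2, where a lone library was assumed to vary like the others. Total counts as the basis of the classes gave 31, 4, 48 and 3, of which 27, 4, 41 and 2 were among the main calls. Of the 50 genes called in the average, 4 kept the call in all 16 settings, 11 lost it in 1 to 5 and 35 in over 5.

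Among called values of single genes, signs reversed for cells of 1600 to 2000 counts for Gm26924 (-0.0111, RFP+), Jun (0.00298, RFP+), Sptbn1 (0.0979) and Top2a (-0.00237), and for the mt-Rnr2 difference with a high class of 2000 to 3000 counts (-0.0428); none of these passed the test. Signs of lists and trends also changed: the RFP+ length trend (-0.0181) was 0.0234 without the second RFP+ library, the RFP+ ribosomal protein share (0.367) -0.013 for 2000 to 3000 counts, and G1/S genes 65.5 CPM without the first RFP+ library (from -151) and -114 without the first GFP+ library (from 60.6). The cause was not tested. The length trend of the GFP+ libraries (-0.0814) was -0.0523 with thinned cells, -0.0648 for 2000 to 3000 counts, -0.00702 for 1600 to 2000, -0.0541 with the median transcript length and -0.0582 to -0.058 without 1 of these libraries. The ribosomal protein share of the GFP+ libraries (0.323 points, high minus low) was 0.0815 with cells classed by other genes, 0.187 for 2000 to 3000, 0.405 from 2500 and -0.103 for 1600 to 2000 counts. G1/S genes in the RFP+ libraries (-151 CPM) were at 207 for 2000 to 3000 counts. G2/M genes there (1110 CPM) were at 928 with cells classed by other genes, 296 for 2000 to 3000, 1700 from 2500, 150 for 1600 to 2000 counts and 578 thinned. The mitochondrially encoded share, whose alternatives were chosen after seeing the data, stayed negative in all of them. In the RFP+ libraries (-0.414 points) it was -0.293 for 2000 to 3000 and -0.195 for 1600 to 2000 counts. In the GFP+ libraries (-0.178) it was -0.188 with cells classed by other genes, -0.191 from 2500 and -0.122 for 1600 to 2000 counts. With 2 libraries per population and sums of 600049 to 1109134 counts, small changes are beyond this depth.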
